A study of Mus musculus with 15 samples.

Results

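Heterotrimeric G proteins relay signals from seven-helix receptors, and 10 genes of their alpha and beta subunits are described here among 55335 gene identifiers counted. The genes are Gnb1, Gnb2, Gnb4 and Gnb5 for beta subunits, and Gnai2, Gnai3, Gnas, Gnaq, Gna15 and Gna13 for alpha subunits. They were picked by symbol and selected on their scaled read level (CPM, reads scaled to library size) in the same 6 RNA libraries, with the result for Gnb4 already known. Their differences between the groups are therefore given as a description, without a test. All 10 were found in the files and all 10 passed the filter on low counts, Gnb5 only through the group in which it was high.

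RNA was compared between 3 libraries titled MSL2KO (Msl2 knockout by title, Slp65KO by tag) and 3 titled MSL2WT (Msl2 wild type by title, Slp65KO by tag). Both groups are untreated mouse pre-B cells in culture, and both are labelled as knockouts of Slp65 (Blnk), the gene of an adaptor below the pre-B cell receptor. The starting cells were taken from bone marrow, expanded from 1 single cell and kept in IL7. The knockout line was made from them by CRISPR/Cas9 with a guide RNA to Msl2, the gene of a ubiquitin ligase in the MSL histone acetylation complex, and was set against the wild-type clone. With a single line per genotype, the loss of Msl2 and differences between lines cannot be told apart. Nothing in the labels ties replicates to separate cultures, so p-values measure only how far these libraries spread, and that spread may be technical.

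In all 6 libraries the genotype tag says the opposite of the title. Groups here follow the titles, and every direction below depends on them. Msl2 itself was at 105, 103 and 121 CPM in knockout libraries and at 97.1, 99.3 and 92.3 CPM in wild-type libraries. Reads summed along a gene cannot show a small edit, so Msl2 does not settle which label is right. Blnk was read in both groups, at 108 to 116 CPM in knockout and 83.2 to 119.6 CPM in wild-type libraries. These gene counts therefore do not bear out the Slp65 knockout of the labels, and, as for Msl2, they cannot show which part of the gene was read. Total counts were 15250975 to 20803227 in knockout and 14092278 to 17437198 in wild-type libraries. Of 13 pre-B markers, 12 were tested, and their summed level was 2975 to 3001 CPM in knockout and 2876 to 3180 CPM in wild-type libraries. Il7r, the interleukin 7 receptor gene, was the called marker, at 18.9 to 40.7 CPM in knockout and 73.6 to 96.3 CPM in wild-type libraries. Dntt, the terminal transferase gene of early B cell precursors, was not tested, with 5 to 17 reads in knockout and 3 to 5 reads in wild-type libraries. Summed levels stayed low for 9 T and NK cell markers (0.99 to 1.93 CPM in knockout, 0.796 to 2.2 CPM in wild type) and for 9 myeloid markers (0.704 to 2.36 and 1.19 to 1.84 CPM). They were 1.49 to 1.58 CPM in knockout and 2.79 to 3.6 CPM in wild type for 8 erythroid and megakaryocyte markers, and at most 0.132 CPM for 6 stromal markers. Ncr1, Nkg7, Lyz2, Elane, S100a8, S100a9, Pf4, Col3a1, Pdgfrb, Dcn and Lum had 0 reads in every library, and Gata1 was called lower in the knockout. Gata1 had 5, 7 and 1 reads in knockout and 31, 28 and 27 in wild-type replicates, and passed the filter only through the wild type. The part of these markers in the results below was not tested. Knockout replicate 2 stood apart in part: among 107 called genes at least 4-fold lower in the knockout, it was the highest of the 3 knockout libraries in 74. Among 44 called genes at least 4-fold higher, wild-type replicate 2 was the highest wild-type library in 24.

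In its resting form a G protein holds an alpha subunit bound to GDP and a tight pair of beta and gamma subunits. An activated receptor makes alpha exchange GDP for GTP, and alpha and the beta-gamma pair then act on separate effectors. Gi subunits inhibit adenylyl cyclase and carry chemokine receptor signals in lymphocytes, Gs stimulates the cyclase, Gq activates phospholipase C beta, and G13 acts on guanine exchange factors of the GTPase RhoA. GNB5 is the exception among beta subunits: it pairs with regulators of G protein signalling of the R7 family in place of a gamma subunit.

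The beta subunit genes differed in direction. Gnb4 was higher and Gnb5 lower in the knockout, while Gnb1 and Gnb2 were slightly higher (log2 fold changes 0.16 and 0.18). The alpha subunit genes overlapped between the groups, with log2 fold changes from -0.18 (Gnas) to 0.11 (Gnaq). Of the 10 genes, 2 were among those called in edgeR's quasi-likelihood test over all 13077 tested genes, where 4.59% were called at an adjusted p under 0.05. By direction, 1 was called higher (1.80% of all tested genes) and 1 lower (2.79%). Knockout and wild-type libraries did not overlap for 4 of the 10, against 20.9% of all tested genes. For 3 of these the knockout libraries were the higher ones (9.68% of all tested genes) and for 1 the lower ones (11.2%). Because the genes were chosen with this comparison known, nothing is read from these counts. The median log2 fold change was 0.06 over the 10 genes and 0.004 over all tested genes.

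Gnb4 (ENSMUSG00000027669.14, chromosome 3, 32578587 to 32616673, RefSeq on GRCm38.p6, the mm10 assembly) encodes a beta subunit that pairs with gamma subunits. Knockout replicates 1, 2 and 3 had 153, 144 and 144 CPM, and wild-type replicates 1, 2 and 3 had 71.6, 69.4 and 61.8 CPM. The groups did not overlap, and the lowest knockout library lay well above the highest wild-type library. Knockout libraries averaged 147 ± 5.20 CPM and wild-type libraries 67.6 ± 5.12 CPM (SD, n = 3 each), a 2.18-fold higher level in the knockout with a log2 fold change of 1.12 ± 0.08 (SE). Fold changes here and below come from the fit, not from the ratio of the means. These values rest on 2189 to 3069 reads per knockout library and 932 to 1231 reads per wild-type library. In bulk RNA, fewer cells that express a gene and less RNA per cell cannot be told apart.

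The same Gnb4 counts were also set against those of Gnb1, which needs no scaling of libraries but is not separate evidence. For every 100 reads of Gnb1, Gnb4 had 54.8, 55.0 and 50.1 reads in the knockout libraries and 29.5, 27.5 and 25.1 reads in the wild-type libraries. This is a ratio of reads within a library, not of molecules, since transcript lengths were not used. By contrast, Gnb2 had 88.7 ± 0.0641 reads per 100 Gnb1 reads in the knockout and 87.6 ± 5.03 in the wild type. Gnb1 is not an unchanged reference, since it was itself higher in every knockout library (log2 fold change 0.16). Relative to Gnb1, Gnai3, Gnas and Gnb5 lay lower in every knockout library. For Gnai3 the ratio was 69.9 ± 1.61 in the knockout and 81.3 ± 5.05 in the wild type.

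The RefSeq span of Gnb4 overlaps that of Mfn1, a mitochondrial fusion gene, and the strand setting of the counting is not given. Mfn1 was at 48.4, 49.9 and 53.9 CPM in knockout libraries and at 51.2, 50.6 and 53.8 CPM in wild-type libraries, so its groups overlapped. Of 7 tested genes within 500 kb of Gnb4, edgeR called 0 and DESeq2 called 0, while 1 (Ndufb5) had an unadjusted p under 0.05. Their log2 fold changes ran from -0.24 to 0.12, with a median of -0.10. Pik3ca, which encodes a catalytic subunit of PI3 kinase and lies in this window, averaged 129 CPM in the knockout and 119 CPM in the wild type.

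Gnb5 (ENSMUSG00000032192.9, chromosome 9, 75306288 to 75345923) was low in both groups. It was at 0.435, 0.563 and 0.198 CPM in knockout replicates, from 7, 12 and 3 reads. In wild-type replicates it was at 3.96, 4.23 and 4.11 CPM, from 56, 75 and 62 reads. All 3 knockout libraries lay below all 3 wild-type libraries. Knockout libraries averaged 0.399 ± 0.185 CPM and wild-type libraries 4.10 ± 0.137 CPM (SD), and the ratio of these means was 10.3. The fitted log2 fold change was -3.29 ± 0.34 (SE), a 9.78-fold lower level in the knockout. At these read counts Gnb5 passed the filter on low counts only through the wild-type libraries. A gene this low in the knockout is tested only where the wild type is higher, so its direction is description only. Knockout replicate 2, the library that often stood highest among genes lower in the knockout, was also the highest here, and without it the log2 fold change was -3.64.

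The Gnb5 span overlaps that of Myo5c, a myosin gene with 1 to 9 reads in knockout and 6 to 8 in wild-type libraries. Of 8 tested genes within 500 kb of Gnb5, edgeR called 0 and DESeq2 called 0, and 0 had an unadjusted p under 0.05. Their log2 fold changes ran from -0.51 to 0.68, with a median of -0.02. Mapk6, which encodes an atypical MAP kinase, averaged 84.9 CPM in the knockout and 84.1 CPM in the wild type there.

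Gnb1 (chromosome 4, 155491300 to 155559269) and Gnb2 (chromosome 5, 137528127 to 137533449) encode widely expressed beta subunits. Gnb1 was at 279.8, 262 and 288 CPM in knockout and at 242, 253 and 246 CPM in wild-type libraries. Gnb2 was at 248, 232 and 256 CPM in knockout and at 208, 211 and 229 CPM in wild-type libraries. Every knockout library lay above every wild-type library for both genes, by a narrow margin. The log2 fold changes were 0.16 ± 0.07 for Gnb1 and 0.18 ± 0.07 for Gnb2 (SE), and neither gene was called.

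**Figure D1:**
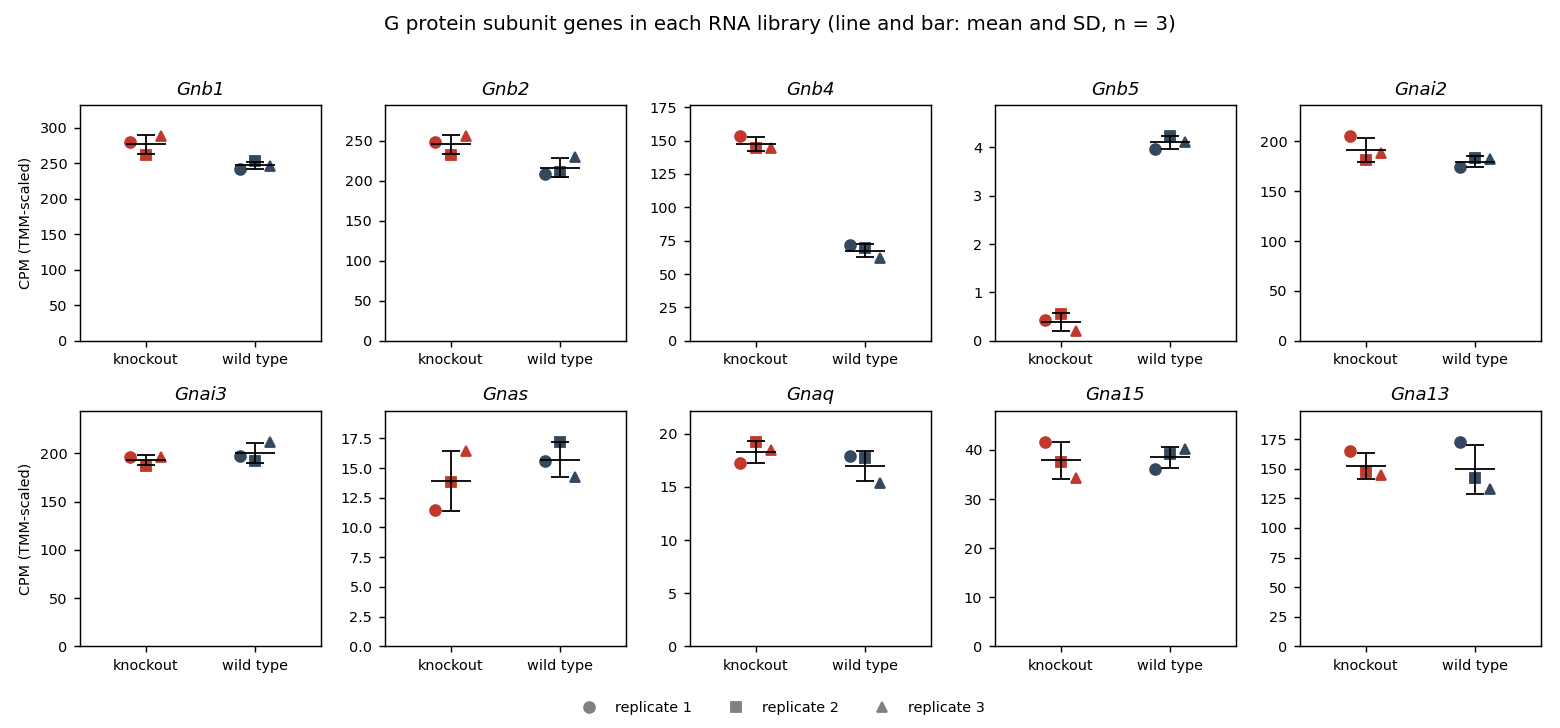
TMM-scaled CPM of the 10 subunit genes (vertical axes start at 0 and differ between genes) in 3 knockout (left, red) and 3 wild-type (right, dark) libraries, with symbols for replicate numbers and a line and bar for the mean and SD. Gnb4 sits at 144 to 153 CPM in the knockout and 61.8 to 71.6 CPM in the wild type, Gnb5 shows the opposite order, and the alpha subunit genes overlap between groups.

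Among the alpha subunits, Gnai2 (chromosome 9, 107614125 to 107635391) and Gnai3 (chromosome 3, 108107275 to 108146152) encode the inhibitory Gi subunits of most blood cells. Gnai2 was at 205, 182 and 188 CPM in knockout libraries and at 174, 184 and 182 CPM in wild-type libraries. Gnai3 was at 196, 187 and 197 CPM in knockout libraries and at 198, 192 and 212 CPM in wild-type libraries. The groups overlapped for both genes, with log2 fold changes of 0.09 ± 0.07 and -0.05 ± 0.07 (SE).

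Gnas (chromosome 2, 174284320 to 174346744) encodes the stimulatory Gs subunit, in an imprinted locus with several alternative starts. It was at 11.4, 13.8 and 16.4 CPM in knockout libraries and at 15.6, 17.2 and 14.3 CPM in wild-type libraries. The groups overlapped, and the log2 fold change was -0.18 ± 0.14 (SE). The count adds up all starts of the locus, so a shift between them would not be visible. Nespas, the antisense RNA that overlaps the locus, had 0 reads in every library, below a floor of 3 counts (0.141 to 0.212 CPM).

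Gnaq (chromosome 19, 16132684 to 16388520) and Gna15 (chromosome 10, 81502313 to 81524447) encode members of the Gq class, of which Gna15 is found mainly in blood cells. Gnaq was at 17.2, 19.2 and 18.5 CPM in knockout libraries and at 17.9, 17.7 and 15.4 CPM in wild-type libraries. Gna15 was at 41.7, 37.6 and 34.3 CPM in knockout libraries and at 36.0, 39.3 and 40.1 CPM in wild-type libraries. The groups overlapped for both, with log2 fold changes of 0.11 ± 0.11 and -0.02 ± 0.10 (SE).

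Gna13 (chromosome 11, 109362794 to 109401369) encodes the G13 subunit, which restrains migration and growth of germinal centre B cells. It was at 165, 147 and 145 CPM in knockout libraries and at 173, 142 and 133 CPM in wild-type libraries. The groups overlapped, with a log2 fold change of 0.03 ± 0.10 (SE). Wild-type replicate 1 was the highest of all 6 libraries, and the SD was 10.7 CPM in the knockout and 20.7 CPM in the wild type.

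Several subunit genes stand beside a relative on the chromosome, and these relatives were not among the 10. Gna11 lies 4277 bp from Gna15 by RefSeq spans, Gnat2 lies 5843 bp from Gnai3, Gnat1 39046 bp from Gnai2 and Gna14 47147 bp from Gnaq. Gnat1 had at most 2 reads and Gna14 at most 11 reads in any library, and neither was tested. Gnat2, a transducin of cone cells, averaged 1.83 CPM in the knockout and 2.31 CPM in the wild type and was not called (adjusted p 0.677 in edgeR's quasi-likelihood test).

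Gna11, which encodes the Gq class subunit closest to Gnaq, was the single called gene among 4 tested alpha subunits outside the 10. It was at 21.5, 23.0 and 22.1 CPM in knockout libraries and at 28.1, 28.8 and 28.9 CPM in wild-type libraries. The groups did not overlap, and the level fell 1.29-fold (log2 fold change -0.36 ± 0.09 SE, adjusted p 0.0412 in edgeR's quasi-likelihood test). The call was narrow: without any 1 of the 6 libraries the adjusted p ran from 0.0762 to 0.118, and with library totals only it was 0.0635. Gna15, its neighbour, had a log2 fold change of -0.02, and the difference between them was not tested.

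**Figure D2:**
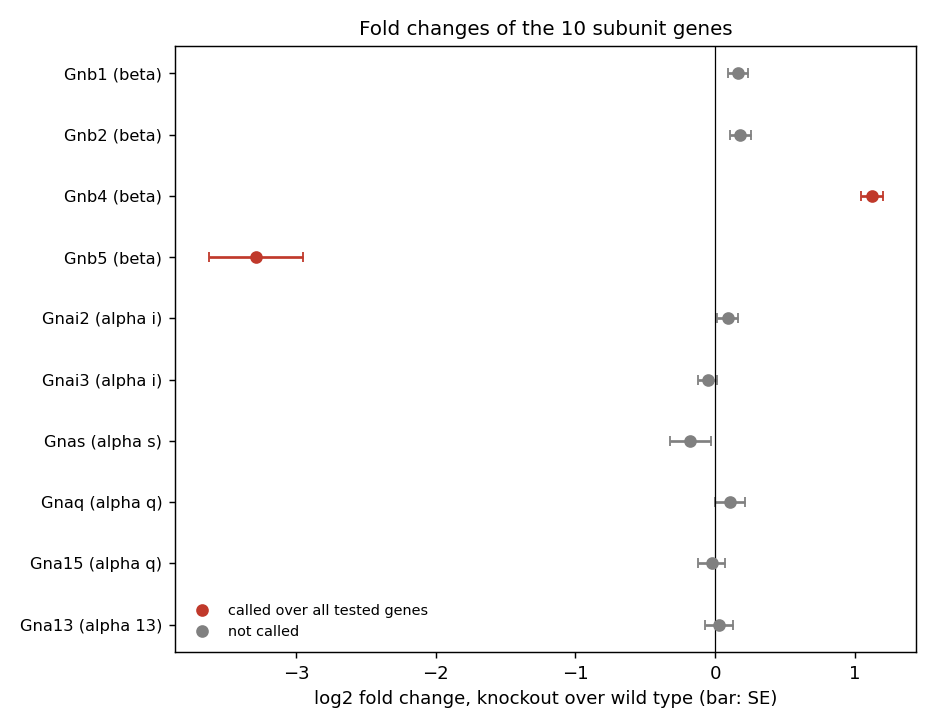
Log2 fold change (knockout over wild type, horizontal axis, bar: SE) of the 10 subunit genes from the fit over all 13077 tested genes, with genes called in that fit in red. Gnb4 lies at 1.12 and Gnb5 at -3.29, and the other 8 lie between -0.18 and 0.18.

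Beyond the 10 subunits, 109 genes of the pathway were listed in 14 groups, also with earlier results of these data known. Of these 72 were tested, and 3 rose and 5 fell at an adjusted p under 0.05 over all tested genes. That is 11.1% called, against 4.59% of all tested genes. Without the low-count filter 7 rose. Without knockout replicate 1, wild-type replicate 1 or wild-type replicate 3, 1 gene rose. Their median log2 fold change was 0.04, against 0.004 over all tested genes. The remaining 37 listed genes did not pass the filter on low counts.

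Gamma subunits, which complete the dimer with GNB1, GNB2 or GNB4, showed no call. Of 12 listed, 6 were tested, and edgeR called 0 and DESeq2 called 0, while 2 (Gng12 and Gngt2) had an unadjusted p under 0.05. Gng5 averaged 71.6 ± 2.26 CPM in the knockout and 66.8 ± 5.66 CPM in the wild type, and Gng2 33.3 ± 8.44 and 27.9 ± 5.09 CPM (SD, n = 3 each). Gngt2, a gamma subunit of cone transducin, averaged 81.8 ± 4.08 and 70.0 ± 6.86 CPM. Gng12 averaged 19.5 ± 0.566 and 14.8 ± 2.47 CPM, with log2 fold changes of 0.40 for Gng12 and 0.22 for Gngt2. Gng11 and Gngt1 had 0 reads in every library. The remaining beta gene, Gnb3, had at most 5 reads and was not tested.

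Among the genes known to work with GNB5 was the largest rise of the 72 tested pathway genes. RGS7BP is a membrane anchor of complexes between R7 regulators and GNB5. Rgs7bp (chromosome 13, 104945904 to 105054930) was at 7.27, 7.32 and 7.99 CPM in knockout libraries and at 1.48, 1.07 and 0.863 CPM in wild-type libraries. It rose 6.60-fold (log2 fold change 2.72 ± 0.24 SE, adjusted p 0.00028 in edgeR's quasi-likelihood test), and its groups did not overlap. Rgs7bp had 117, 156 and 121 reads in knockout and 21, 19 and 13 reads in wild-type replicates. Gnb5 and Rgs7bp had opposite signs of log2 fold change; whether they differ from each other was not tested. Of the R7 regulators themselves, Rgs6 and Rgs7 had 0 reads in every library and Rgs11 at most 3 reads. Rgs9 averaged 0.561 ± 0.276 CPM in the knockout and 0.808 ± 0.291 CPM in the wild type and was not called. Rgs9bp, the anchor known from the retina, averaged 0.96 ± 0.0854 and 1.45 ± 0.278 CPM and was not called (adjusted p 0.43).

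The start regions of Gnb5 and Rgs7bp, the partner genes with opposite signs, are shown because the study concerns targeting of the MSL complex by YY1, a DNA-binding factor. Each is the 250 bases before the RefSeq start (GRCm38.p6), 5′ to 3′ on the gene's strand. Capitals mark matches to CCATNTT, the core letters of the YY1 motif, on either strand. Gene counts do not show whether these starts are used in pre-B cells. Gnb5 lies on the plus strand (chr9:75306038-75306287) and Rgs7bp on the minus strand (chr13:105054931-105055180). The whole Gnb5 window lies inside the RefSeq span of Myo5c (75231969 to 75307485).
Gnb5: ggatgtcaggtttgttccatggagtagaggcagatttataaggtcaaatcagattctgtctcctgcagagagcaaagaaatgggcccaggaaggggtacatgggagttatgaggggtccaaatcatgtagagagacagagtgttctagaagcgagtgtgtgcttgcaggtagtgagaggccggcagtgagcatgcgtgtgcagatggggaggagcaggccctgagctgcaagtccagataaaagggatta
Rgs7bp: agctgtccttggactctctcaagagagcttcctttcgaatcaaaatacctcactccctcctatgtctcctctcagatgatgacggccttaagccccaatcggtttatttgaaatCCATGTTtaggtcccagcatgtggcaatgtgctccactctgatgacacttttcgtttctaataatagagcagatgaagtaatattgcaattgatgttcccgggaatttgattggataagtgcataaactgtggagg

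The Gnb5 window holds 3 CpG dinucleotides and 0 matches. The Rgs7bp window holds 5 CpG dinucleotides and 1 match. The other called pathway genes with a window, Gpsm3 and Cxcr4 among those that rose and Gna11, Ptger4 and Gpr65 among those that fell, had 0 matches. Over all 32851 RefSeq windows the median was 6 CpG, and 12.4% held a match. Windows existed for 8 of the 10 subunit genes, all but Gnb4 and Gnai2, with 11 windows in all because Gnas has 4. Of these 11, 1 held a match (Gnaq, with 37 CpG), and they ranged from 3 CpG in Gnb5 to that 37. A match is a run of letters and does not show binding.

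Effectors of Gs and Gi showed a single called gene. Adenylyl cyclases make cyclic AMP, and 3 of 10 were tested. Adcy6 (chromosome 15, 98589978 to 98610287), a cyclase that Gs stimulates and Gi inhibits, was at 27.2, 26.2 and 18.0 CPM in knockout libraries. In wild-type libraries it was at 63.1, 70.5 and 64.6 CPM, and the groups did not overlap. Adcy6 fell 2.77-fold (log2 fold change -1.47 ± 0.14 SE, adjusted p 0.00045 in edgeR's quasi-likelihood test). Adcy7, the main cyclase of blood cells, averaged 73.9 ± 11.4 CPM in the knockout and 95.0 ± 4.53 CPM in the wild type. It was lower in every knockout library but was not called in the same test (adjusted p 0.0964). Adcy3 averaged 3.47 ± 0.647 and 3.1 ± 0.159 CPM (adjusted p 0.839). Adcy2 and Adcy8 had 0 reads in every library.

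**Figure D3:**
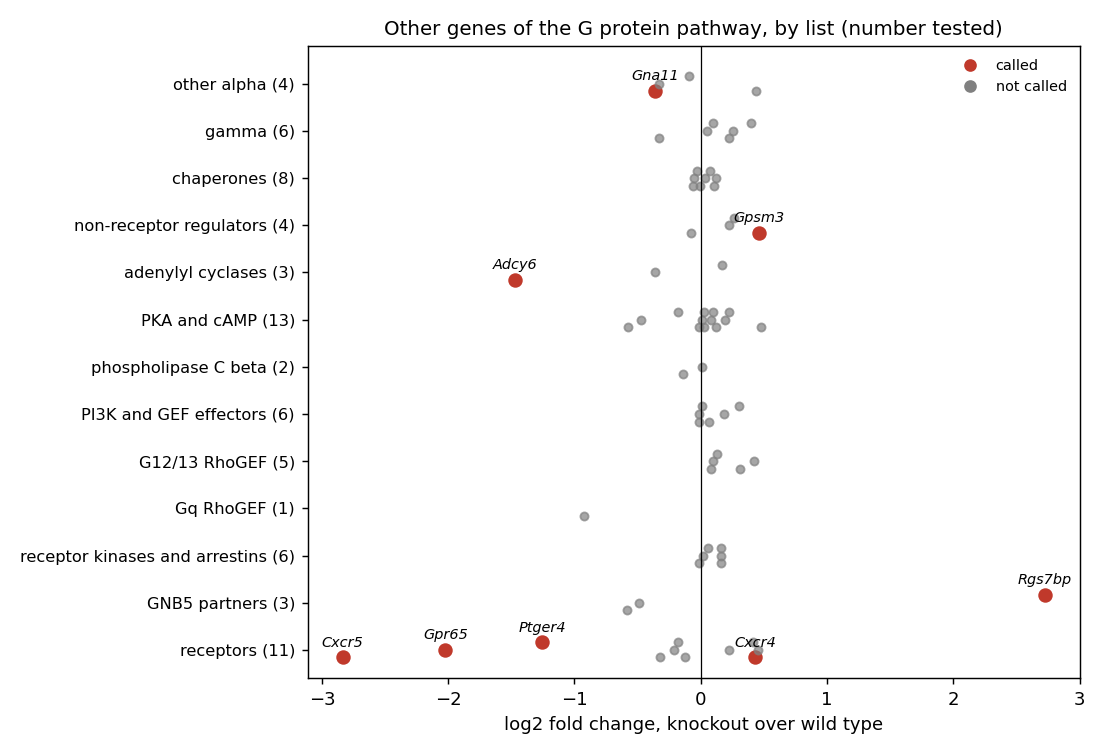
Log2 fold change (knockout over wild type, horizontal axis) of the 72 tested genes of the other pathway lists, 1 row per list with the number tested in brackets and small vertical offsets for legibility. The 8 called genes are red and named, from Cxcr5 at -2.84 to Rgs7bp at 2.72.

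Receptors of B lineage cells held 4 of the 8 called genes. Of 11 tested, 1 rose and 3 fell, against 1.80% called higher and 2.79% called lower of all tested genes. P2ry10 narrowly missed a call (log2 fold change 0.45, adjusted p 0.0503 in edgeR's quasi-likelihood test). It averaged 88.5 ± 14.6 CPM in the knockout and 64.7 ± 3.92 CPM in the wild type, and its groups did not overlap. Ptger4 (chromosome 15, 5233399 to 5244187), a prostaglandin E2 receptor that couples to Gs, was at 9.20, 12.9 and 10.1 CPM in knockout and at 22.8, 29.6 and 24.9 CPM in wild-type libraries. It fell 2.39-fold (log2 fold change -1.26 ± 0.15 SE, adjusted p 0.00116 in edgeR's quasi-likelihood test). Gpr65 (chromosome 12, 98268635 to 98276722), a proton-sensing receptor that also couples to Gs, was at 0.995, 1.36 and 0.66 CPM in knockout and at 3.82, 3.72 and 5.04 CPM in wild-type libraries. It fell 4.06-fold (log2 fold change -2.02 ± 0.30 SE, adjusted p 0.004). Gpr65 rests on 16, 29 and 10 reads in knockout and 54, 66 and 76 reads in wild-type replicates. It does not pass a stricter filter (mean log2 CPM of 2 or more). For neither Ptger4 nor Gpr65 did the groups overlap.

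The chemokine receptors Cxcr4 and Cxcr5, which signal through Gi, differed in direction. Cxcr5 (chromosome 9, 44511787 to 44526444) was at 0.995, 2.30 and 0.528 CPM in knockout and at 11, 10.2 and 7.63 CPM in wild-type libraries. It fell with a log2 fold change of -2.84 ± 0.38 (SE, adjusted p 0.00234 in edgeR's quasi-likelihood test), and of -3.62 without knockout replicate 2. Cxcr5 had 16, 49 and 8 reads in knockout and 155, 180 and 115 reads in wild-type replicates. With 8 reads in knockout replicate 3, it passed the filter on low counts through the wild-type libraries. Cxcr4 (chromosome 1, 128588199 to 128592299) was at 113, 105 and 106 CPM in knockout and at 82.7, 89.7 and 68.0 CPM in wild-type libraries. It rose 1.35-fold (log2 fold change 0.43 ± 0.10 SE, adjusted p 0.039). The Cxcr4 call held without wild-type replicate 2 but ended when any other single library was left out (adjusted p from 0.0509 to 0.113). Library totals only (0.0668) and the stricter filter, which keeps genes at a mean log2 CPM of 2 or more (0.0595), ended it too.

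GPSM3 binds Gi subunits in their GDP form, outside the receptor cycle. Its gene Gpsm3 (chromosome 17, 34589806 to 34591754) was at 29.1, 23.0 and 26.7 CPM in knockout and at 18.9, 18.3 and 19.8 CPM in wild-type libraries. It rose 1.38-fold (log2 fold change 0.46 ± 0.11 SE, adjusted p 0.0402 in edgeR's quasi-likelihood test), as 1 of 4 tested non-receptor regulators. That call was lost without any 1 library other than knockout replicate 2 (adjusted p from 0.0597 to 0.14) and in limma-voom (0.0504).

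**Figure D4:**
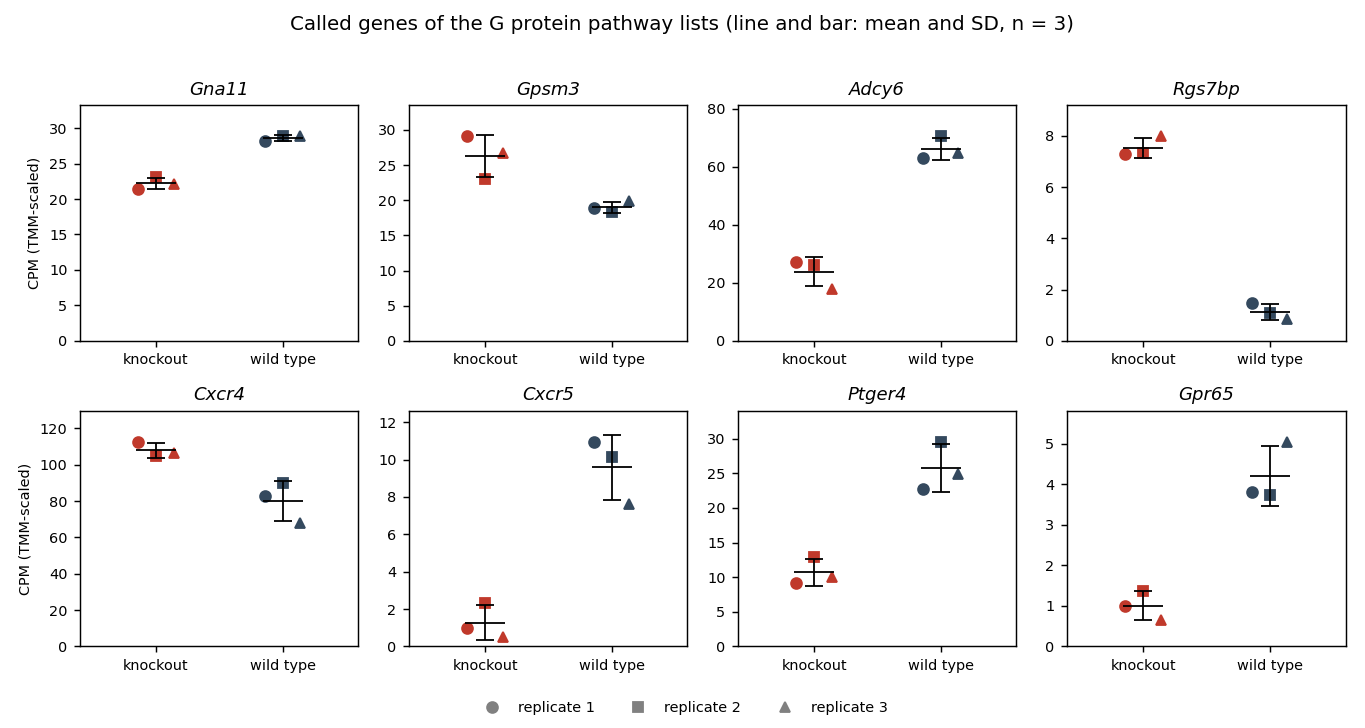
TMM-scaled CPM of the 8 called pathway genes (vertical axes start at 0 and differ between genes) in 3 knockout (left, red) and 3 wild-type (right, dark) libraries, with a line and bar for the mean and SD. Rgs7bp, Gpsm3 and Cxcr4 lie higher in every knockout library, and Gna11, Adcy6, Cxcr5, Ptger4 and Gpr65 lie lower in every knockout library.

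The other 8 lists with tested genes hold the gamma subunits and 41 further tested genes. They were grouped because edgeR called 0 of their 47 genes, so this 0 is fixed by the grouping and no separate result. Over all 13077 tested genes edgeR called 4.59%. DESeq2 called 0 of the 47, and 327 higher and 466 lower over all tested genes. In edgeR 8 of the 47 had an unadjusted p under 0.05, with no count over all genes to set beside it. The chaperones of subunit folding (8 tested), among them Ric8a for alpha subunits and Pdcl for the beta-gamma pair, had log2 fold changes from -0.06 to 0.12. Ric8a averaged 77.1 ± 4.51 CPM in the knockout and 80.2 ± 0.748 CPM in the wild type, and Pdcl 67.6 ± 4.44 and 62.2 ± 2.95 CPM. Among 13 genes of protein kinase A and cyclic AMP turnover the range was -0.58 to 0.47. For Prkacb, a catalytic subunit of that kinase, the means were 139 ± 2.73 and 138 ± 1.14 CPM. Plcb2 and Plcb3, the phospholipases downstream of Gq, averaged 26.0 ± 3.07 and 28.9 ± 1.31 CPM in the knockout. In the wild type they averaged 28.7 ± 4.03 and 28.7 ± 1.49 CPM. Pik3cg, the PI3 kinase that beta-gamma activates, averaged 171 ± 12.7 and 150.1 ± 5.11 CPM (adjusted p 0.279). All 5 genes of the G12 and G13 route to RhoA had positive log2 fold changes, from 0.08 to 0.42, and none was called. Among receptor kinases and arrestins, Grk2 averaged 516 ± 13.3 and 461 ± 12.5 CPM (adjusted p 0.293), and the range of the list was -0.01 to 0.16.

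Gene patterns most like that of Gnb4 were ranked by the root mean square difference of centred log2 CPM over the 6 libraries, among 9548 genes. This is a description, and the libraries share depth and scaling across genes. The nearest was Arhgef33, with a difference of 0.07. It averaged 34.4 ± 2.77 CPM in the knockout and 16.2 ± 1.93 CPM in the wild type. Ifi208, of an interferon-inducible family, followed at 0.11, Drc7, of a dynein regulatory complex of cilia, at 0.13, Dio2, a thyroid hormone deiodinase, at 0.14 and Vim, which encodes vimentin, at 0.15. Vim averaged 382 ± 63.4 CPM in the knockout and 160 ± 20.4 CPM in the wild type.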

How the data were processed

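Each deposited RNA file holds a raw read count per gene, named so in its header (per the file headers) and without normalisation by the authors. Per the labels' protocols, total RNA was depleted of ribosomal RNA. STAR 2.5.3a, featureCounts 2.0.0 and limma, and the build mm10, appear without a role in the submitters' processing notes. Not given in the sources used here were the annotation release and the settings for strand and multiply mapped reads, so overlapping or closely related genes may share reads. The 9 chromatin samples were not analysed here.

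The members and lists were chosen with earlier results of these data known. Of 55335 identifiers, 55154 matched a symbol, by the versioned identifier first and otherwise without the version number. The 213 identifiers with a symbol shared by 2 or more identifiers were kept under their identifier. Genes kept by filterByExpr (13077) were scaled by TMM and tested across all genes with edgeR 4.0.16 (quasi-likelihood, no covariate) in R 4.3.3, with Benjamini-Hochberg adjustment and a threshold of 0.05. CPM uses TMM-scaled library sizes over the tested genes. SE comes from the fold change and the F statistic. No molecular identifiers are named, so the floor of 3 counts covers counting error only. Replicates of a group all differed by more than sampling noise (chi-square per degree of freedom, 7.40 to 19.5). The test was tested on simulated data. Alternatives were RLE scaling, library totals, no or a stricter filter, DESeq2 1.42.0, limma-voom (limma 3.58.1), a replicate block and leaving out libraries.

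Named by rule were the 10 subunits, Msl2, Blnk, called pathway genes, called genes within 500 kb of Gnb4 or Gnb5 (0) and the 5 genes nearest to Gnb4 among those at a mean log2 CPM of 2 or more (pseudocount 2). Other genes, named to complete a family or list, were chosen after their values were seen. Levels were not compared between genes, since exon lengths were not used here.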

Additional observations from a re-analysis of the deposited data

How the results depend on the processing

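Across 14 alternatives Gnb4 kept a log2 fold change from 1.06 to 1.16, and across 13 (it does not pass the stricter filter) Gnb5 kept -3.64 to -3.00. The other 8 subunits moved by less than their spread between replicates, except Gnb1 at 0.22 without both libraries numbered 2, an alternative chosen after seeing the data. The sign varied for Gna13 (-0.05 to 0.14) and Gna15 (-0.10 to 0.04). In all, 268 values counted as kept and 38 did not. For a subunit, kept meant a move within its spread between replicates. For a called pathway gene it meant the same sign and an adjusted p still under 0.05. For a number of called genes it meant staying within a set fold of the main count. Genes called higher and lower were 482 and 721 without the low-count filter, with more genes tested (26696), where 7 pathway genes were higher, and 231 were lower under the stricter filter (mean log2 CPM of 2 or more). Without both libraries numbered 2, 224 genes were lower and 1 pathway gene higher, and Gna11, Gpsm3 and Cxcr4 lost their calls (adjusted p 0.287, 0.115 and 0.0625). Leaving out each library gave 138 to 227 genes higher, 242 to 316 lower, and 1 to 4 pathway genes higher and 4 to 5 lower, with fewer samples in each fit. With the replicate number as a block, 381 genes were higher and 565 lower, and Gnb4 and Gnb5 stood at 1.12 and -3.31. Whether the numbers pair the libraries is not settled by their deviations from the group means. These correlated at 0.029, 0.212 and 0.403 for same-numbered libraries and from -0.396 to 0.272 for differently numbered ones. Not every library correlated best with its own number. The causes of the moves between alternatives were not tested. The planned order of levels and shares of subunits per length were not run, since exon lengths were not used here. At 3 to 12 knockout reads, Gnb5 is the subunit whose fold change depth limits most.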
